A study of Mus musculus with 12 samples.

Results

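The neurexophilin genes *Nxph1*, *Nxph2*, *Nxph3* and *Nxph4* were followed through single-nucleus RNA sequencing of the newborn mouse forebrain. All 4 were found by symbol among the 55335 genes of the count tables. The family was chosen by the measured Het and WT difference of *Nxph1* in Cajal-Retzius-like nuclei, known from earlier work on these data, so that contrast is described below with no test. The 12 libraries each came from 1 mouse of the C57BL/6 line MYT1L S710fsX at postnatal day 1 (P1). The 8 WT libraries (5 male, 3 female) carried no mutant allele, and the 4 Het libraries (3 male, 1 female) carried 1 copy of the germline frameshift allele S710fsX of *Myt1l*, a neuronal transcription factor gene, in every cell. No transgene or treatment is named for either group, and the line is kept by crossing Het with C57BL/6J mice. The labels call the tissue forebrain, while one passage of the study's methods speaks of prefrontal cortex.

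Neurexophilins are small secreted glycoproteins that bind the extracellular part of alpha-neurexins, a family of presynaptic receptors. Neurexins also bind postsynaptic partners such as neuroligins, so a neurexophilin is one of several ligands that meet on the same receptor. *Nxph1* is widely used as a gene of cortical interneurons born in the medial ganglionic eminence (MGE), and *Nxph3* and *Nxph4* are known from neurons of the deep cortical layers and subplate.

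The genes differ greatly in length, which matters in nuclei because unspliced RNA is counted too. In GENCODE M21 (build GRCm38, the mm10 of the files), *Nxph1* (ENSMUSG00000046178.3) spans chromosome 6 from 8948431 to 9249032 on the plus strand, 300.6 kb with 1.58% exonic. *Nxph2* (ENSMUSG00000069132.3) spans chromosome 2 from 23321246 to 23401973 on the plus strand, 80.7 kb with 3.20% exonic. *Nxph3* (ENSMUSG00000046719.7) spans chromosome 11 from 95509845 to 95514570 on the minus strand, 4.7 kb with 44.4% exonic. *Nxph4* (ENSMUSG00000040258.6) spans chromosome 10 from 127525473 to 127534559 on the minus strand, 9.1 kb with 18.4% exonic. *Nxph1* overlaps 1 annotated gene, the processed pseudogene *Gm35736*, on its own strand, from 9146766 to 9147078. The other 3 overlap none.

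The coding sequences are related. The pairs share between 52.5% (*Nxph2* and *Nxph4*) and 63.7% (*Nxph1* and *Nxph2*) of aligned bases, and the longest run of identical bases in any pair is 24, between *Nxph3* and *Nxph4*. The most conserved 90 bases of coding sequence, near the 3′ end of each reading frame, are shown because they are where the 4 genes are most alike. Capitals mark bases that differ from *Nxph1* (GENCODE M21 transcripts, 5′ to 3′ on the coding strand), and 51 of the 90 positions are the same in all 4.
Nxph1: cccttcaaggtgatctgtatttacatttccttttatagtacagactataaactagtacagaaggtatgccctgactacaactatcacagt
Nxph2: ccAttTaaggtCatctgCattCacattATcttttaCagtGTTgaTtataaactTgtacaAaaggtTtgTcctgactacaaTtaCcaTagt
Nxph3: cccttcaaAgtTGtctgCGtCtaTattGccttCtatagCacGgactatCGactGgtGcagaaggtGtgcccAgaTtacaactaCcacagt
Nxph4: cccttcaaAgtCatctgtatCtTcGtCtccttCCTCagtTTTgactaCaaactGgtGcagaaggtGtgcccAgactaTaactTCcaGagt
Even here *Nxph2* and *Nxph3* each differ from *Nxph1* at 19 positions and *Nxph4* at 22. In the tables, where a unique molecular identifier (UMI) that fitted several genes was divided among them, 2.89% of the non-zero *Nxph1* entries were not whole, 3.27% of those of *Nxph2*, 0.598% of those of *Nxph3* and 2.36% of those of *Nxph4*.

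The 12 libraries held 15439429 to 40784144 UMIs each, and 94510 nuclei were kept (55135 WT, 39375 Het) with a median of 1888 UMIs. *Myt1l* was counted at 1271 to 1607 CPM (UMIs of the gene per 1e6 UMIs of the nuclei concerned) in WT libraries (median 1380) and at 1527, 1650, 1544 and 1557 CPM in Het libraries. Its level was thus not lower in Het (log2 difference 0.11, SE 0.06, edgeR adjusted p = 0.547), and since a frameshift can leave the transcript in place, this count cannot check the genotype labels. *Xist* and *Ddx3y* went against the sex label in 0 libraries, and no barcode was shared between libraries. Nuclei were placed in 17 classes by marker genes that include no neurexophilin; 41280 nuclei (43.7%) passed a gate, and 14 classes had enough nuclei to be compared. The class gated by microglia markers was led by *Mrc1*, *F13a1* and *Stab1*, genes known from macrophages at the brain's borders, and is called microglia-gated. In 6 of the 14 classes the median nucleus held more UMIs of other classes' markers than of its own: the oligodendrocyte lineage (14 against 4), L6b/subplate (13 against 6), cycling progenitors (11 against 7), D1 striatal (11 against 9), D2 striatal (5 against 3) and the microglia-gated class (5 against 4.27). For the oligodendrocyte lineage the other classes' markers include *Sox6*, a gate marker of the MGE class, which stood at 5033 CPM in that lineage. The small L6b/subplate class is uncertain.

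Over all kept nuclei *Nxph1* stood far above the other 3 genes. It had 185220 UMIs in 23.2% of nuclei, *Nxph2* 3711 in 2.39%, *Nxph3* 515.5 in 0.531% and *Nxph4* 212.9 in 0.224%. Per kilobase of gene span, the mean level over 12 libraries was 3.05 CPM for *Nxph1*, 0.532 for *Nxph3*, 0.231 for *Nxph2* and 0.114 for *Nxph4*. On this scale the short *Nxph3* stood above *Nxph2*. Per kilobase of exon the order was *Nxph1* (193.0), *Nxph2* (7.24), *Nxph3* (1.198) and *Nxph4* (0.620), so the order of *Nxph2* and *Nxph3* depends on which length is used.

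*Nxph1* was highest in the MGE InhN class, inhibitory neurons gated on *Lhx6*, *Sst*, *Sox6*, *Maf* and *Nkx2-1*, at 8890 CPM ± 894 (SD, n = 12 libraries). The oligodendrocyte lineage class, gated on *Pdgfra*, *Olig1*, *Olig2*, *Sox10*, *Cspg4* and *C1ql1*, came next at 3575 ± 474. The difference within library, 5315 CPM, was seen in 12 of 12 libraries (two-sided exact sign-flip test, p = 0.000488, the smallest that 12 libraries allow, adjusted p = 0.0127 over all neighbouring pairs of the 4 genes). The step from the oligodendrocyte lineage to the next class, L6b/subplate at 1556 ± 955, held in 10 of 12 libraries (exact adjusted p = 0.0339). Below that no neighbouring pair passed the test (exact adjusted p from 0.138 to 1). In falling order these were the cycling progenitors at 796 ± 253, the microglia-gated nuclei at 524 ± 725, the CGE InhN class at 465 ± 268, Cajal-Retzius-like nuclei at 409 ± 263 and astroglia at 374 ± 84.8. The place of the microglia-gated class rested on WT 6, without which its mean was 327 ± 261, below astroglia. The remaining 6 classes lay between 71.9 (D2 striatal) and 268 (upper-layer ExN).

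**Figure D1:**
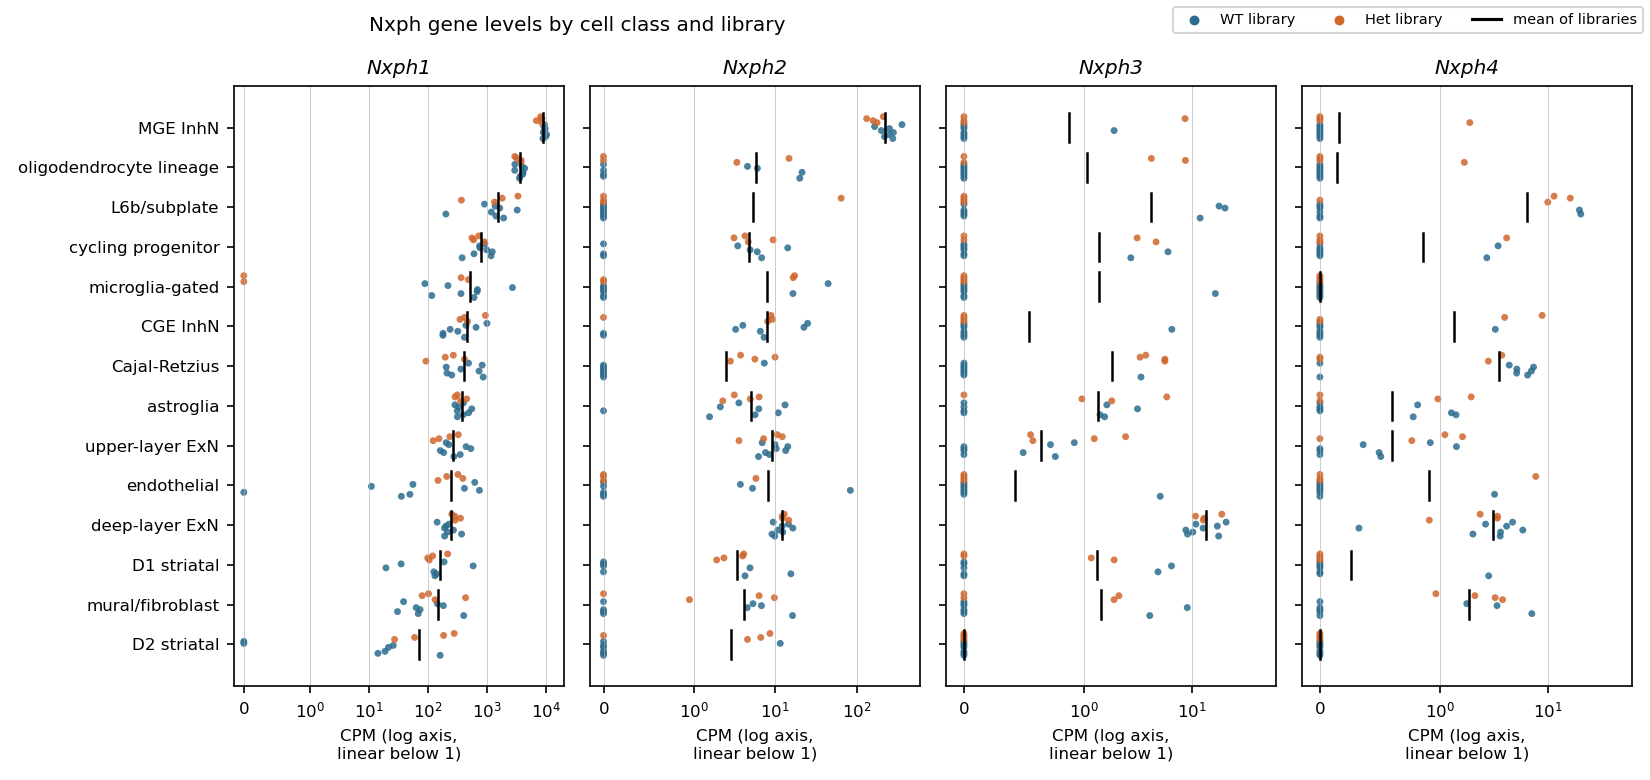
Level of each neurexophilin gene (CPM, log axis that is linear below 1) in 14 cell classes, ordered by the mean of *Nxph1*; points are WT (blue) and Het (orange) libraries with at least 10 nuclei of the class, and black lines are means. *Nxph1* and *Nxph2* peak in the MGE InhN class, *Nxph3* in deep-layer ExN, and most *Nxph4* points sit at 0 or at the level of 1 UMI.

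Nearly every nucleus of the 2 leading classes held *Nxph1*. At least 1 UMI was found in 97.4% of 2141 MGE InhN nuclei (95% exact interval 96.7 to 98.1, median 2112 UMIs per nucleus) and in 95.5% of 1110 oligodendrocyte lineage nuclei (94.1 to 96.6, median 1651). In mural/fibroblast nuclei, a class where the gene was low, the share was 7.06% (median 1551 UMIs). After each nucleus was thinned to 800 UMIs the shares were 95.6%, 87.5% and 4.08%. The median nucleus held 18 *Nxph1* UMIs in the MGE InhN class (quartiles 10 and 29) and 5 in the oligodendrocyte lineage (3 and 9), against 0 in the other 12 classes. Intervals and floors in this text cover counting error alone.

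Within the MGE InhN class the level varied with other genes of the lineage. In the 207 nuclei with a UMI of *Sst*, the somatostatin gene, *Nxph1* stood at 6577 ± 858 CPM, against 9222 ± 949 in the 1934 without, lower in 12 of 12 libraries (exact sign-flip p = 0.000488, adjusted p = 0.00354 over 29 such splits). In the 1404 nuclei with a UMI of *Maf*, a transcription factor gene of MGE interneurons, it stood at 9651 ± 860 against 7591 ± 1085 in the 737 without, higher in 12 of 12 libraries (exact adjusted p = 0.00354). A split by *Lhx6* gave 8795 ± 984 and 9024 ± 924 (exact adjusted p = 0.443). Since a nucleus without one gate marker had to pass on the others, these splits compare unlike parts of one gate. The 29 splits include those of Cajal-Retzius-like nuclei below, without which the adjusted p for *Sst* and *Maf* would be larger. In the oligodendrocyte lineage, none of 5 splits by *Olig1*, *Olig2*, *Sox10*, *Cspg4* and *C1ql1* passed, with exact adjusted p from 0.150 to 0.954 and levels of 3398 to 3845 CPM on either side.

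Outside these classes the median nucleus held no *Nxph1* UMI, and in several classes its level was far higher in nuclei that also held UMIs of MGE or GABA neuron genes. The nuclei of each class were split by a UMI of *Gad1*, *Gad2*, *Lhx6*, *Sst*, *Maf*, *Nkx2-1*, *Dlx6os1* or *Npas1*, leaving out any gate marker of the class itself and *Sox6*, which oligodendrocyte precursors use as well. In upper-layer ExN, *Nxph1* stood at 1622 CPM in nuclei with such a UMI and 84.1 CPM in the 12228 without. In Cajal-Retzius-like nuclei the values were 1615 and 74.8, in endothelial nuclei 869 and 81.0, and in deep-layer ExN 869 and 143. The oligodendrocyte lineage did not show this gap: 871 nuclei without a marker UMI had 3545 CPM, against 3727 with one, and 95.4% of them held *Nxph1*. Cycling progenitors had 667 CPM without and 839 with a marker UMI, the CGE InhN class 299 (47 nuclei) and 425, and L6b/subplate 1189 and 3102. With *Sox6* in the list, cycling progenitors stood at 112 CPM in the 195 nuclei without a marker UMI and 843 in those with one. The L6b/subplate values were then 886 and 2976, and those of the oligodendrocyte lineage 1369 (9 nuclei) and 3607. The 10 richest nuclei held 1.87% of the *Nxph1* UMIs of the MGE InhN class and 4.32% of those of the oligodendrocyte lineage. In the other classes this share ran from 6.98% in deep-layer ExN, 8.08% in upper-layer ExN, 9.64% in astroglia and 12.8% in cycling progenitors to 73.5% in the 392 D2 striatal and 81.3% in the 390 microglia-gated nuclei. Among nuclei without a marker UMI, 28.4% of cycling progenitors and 34.2% of L6b/subplate nuclei held *Nxph1*, or 13.8% and 24.7% with *Sox6* in the list. Whether these UMIs came from nuclei of other classes was not tested.

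**Figure D2:**
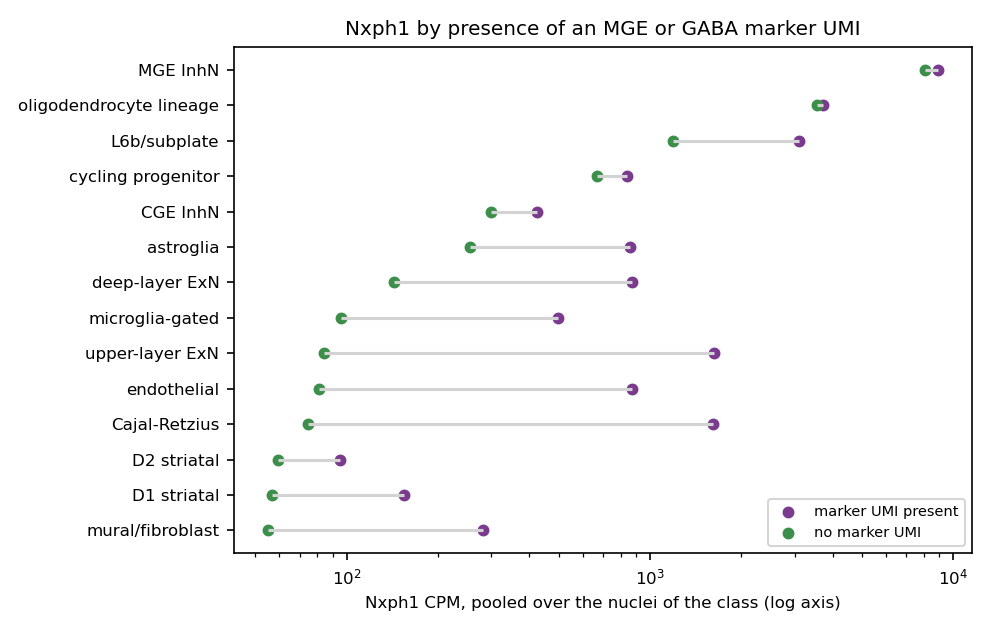
*Nxph1* level (CPM pooled over the nuclei of a class, log axis) in nuclei with (purple) and without (green) a UMI of the MGE and GABA markers named in the text, for 14 classes. The points nearly coincide for MGE InhN (8935 and 8045) and the oligodendrocyte lineage (3727 and 3545) and lie far apart for upper-layer ExN (1622 and 84.1) and Cajal-Retzius-like nuclei (1615 and 74.8).

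*Nxph2* shared the leading class of *Nxph1* but not its second. It stood at 224 ± 63.8 CPM (n = 12) in the MGE InhN class, and next at 12.2 ± 2.22 in deep-layer ExN, a difference of 211 CPM seen in 12 of 12 libraries (exact sign-flip p = 0.000488, adjusted p = 0.0127). Upper-layer ExN followed at 9.20 ± 3.14, lower than deep-layer ExN in 10 of 12 libraries (exact adjusted p = 0.138). The other 11 classes lay between 2.45 and 8.19 CPM and rested on 3.5 to 54.7 UMIs each. A UMI was found in 24.1% of MGE InhN nuclei (95% exact interval 22.3 to 26.0) and 2.60% of deep-layer ExN nuclei (2.27 to 2.96, median 2422 UMIs), against 0.465% of astroglia (median 1407 UMIs). At 800 UMIs per nucleus the shares were 13.98%, 0.925% and 0.227%.

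The share of *Nxph2* among the UMIs of *Nxph1* and *Nxph2* was taken in each class. It was 2.40% of the UMIs pooled over 12 libraries in the MGE InhN class (95% exact interval 2.26 to 2.55). In the oligodendrocyte lineage it was 0.170% (0.0878 to 0.296), that is 11.9 *Nxph2* UMIs beside 7057 of *Nxph1*. Deep-layer ExN stood at 5.08% (4.51 to 5.70) and upper-layer ExN at 3.41% (3.02 to 3.82), both with counting intervals above that of the MGE InhN class. Astroglia (1.45%), Cajal-Retzius-like nuclei (0.675%), cycling progenitors (0.622%) and L6b/subplate (0.323%) lay below it, with counting intervals that did not reach 2.26. These intervals leave out the spread between libraries. Taken per library, the share was 2.44% ± 0.601 in the MGE InhN class (n = 12), higher than this in deep-layer ExN in 12 of 12 libraries (4.96% ± 1.46, exact sign-flip adjusted p = 0.00212 over 13 classes) and in upper-layer ExN in 9 of 12 (3.66% ± 1.56, exact adjusted p = 0.0444). It was lower in 12 of 12 libraries in the oligodendrocyte lineage (0.158% ± 0.222) and in cycling progenitors (0.688% ± 0.664), each with an exact adjusted p = 0.00212. In L6b/subplate it was lower in 11 of 12 (exact adjusted p = 0.00476). In the CGE InhN class it was lower in 10 of 12 (1.41% ± 1.09, exact adjusted p = 0.0114). In astroglia it was lower in 10 of 12, which missed the threshold (exact adjusted p = 0.0603). Cajal-Retzius-like nuclei, the class by which the family was chosen, stood at 0.995% ± 1.53, lower in 10 of 12, and no p-value is given for them. Their test is among the 13 adjusted together, and the adjusted p for upper-layer ExN depends on it.

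**Figure D3:**
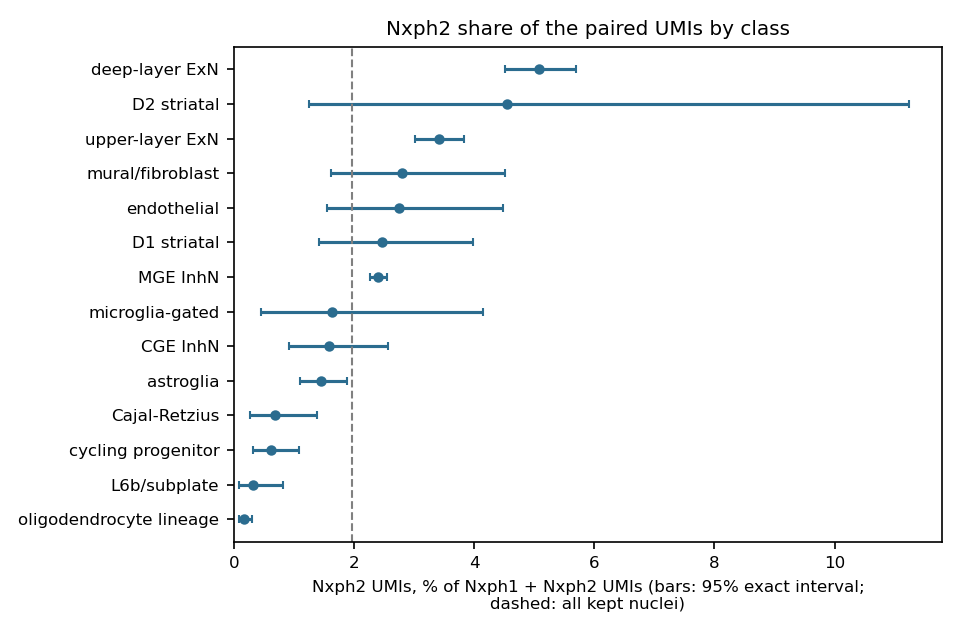
*Nxph2* UMIs as a percentage of *Nxph1* plus *Nxph2* UMIs in 14 classes, summed over 12 libraries; bars are 95% exact intervals and the dashed line is the share over all kept nuclei (1.96%). Deep-layer ExN (5.08%) lies above the MGE InhN class (2.40%) and the oligodendrocyte lineage (0.170%) lies lowest.

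Within the MGE InhN class none of the 3 *Nxph2* splits passed: 159 ± 116 CPM with *Sst* and 233 ± 65.9 without (lower in 10 of 12 libraries, exact adjusted p = 0.148), 239 ± 55.7 with *Maf* and 199 ± 92.3 without (exact adjusted p = 0.150), and 234 ± 84.2 with *Lhx6* and 205 ± 80.5 without (exact adjusted p = 0.524). In deep-layer ExN, nuclei with a UMI of *Fezf2*, a gene of layer 5 projection neurons, had 24.8 ± 16.5 CPM and those without 10.9 ± 2.24 (exact adjusted p = 0.0708).

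*Nxph3* was a gene of deep-layer excitatory neurons, gated on *Fezf2*, *Tle4*, *Tbr1*, *Zfpm2* and *Hs3st4*. It stood there at 13.5 ± 4.05 CPM (n = 12), from 8.78 to 20.7 in WT libraries with a median of 11.8, and at 12.8, 12.9, 10.8 and 18.9 in Het libraries. These 8427 nuclei held 57.2% of all its UMIs, and 3.37% of them had 1 or more (95% exact interval 3.00 to 3.78), against 0.186% of upper-layer ExN nuclei (median 2220 UMIs). At 800 UMIs per nucleus these shares were 1.14% and 0.0649%. The next class, L6b/subplate, had 4.16 ± 7.75 CPM from 3 UMIs. The difference held in 10 of 12 libraries and missed the threshold after adjustment (exact p = 0.00391, adjusted p = 0.0508). Every other class was at 1.80 CPM or less, in most at the level of a few UMIs. None of the 5 splits of deep-layer ExN by its markers passed for *Nxph3* (exact adjusted p from 0.150 to 0.878).

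*Nxph4* was near the limit of detection throughout. It was highest by mean in L6b/subplate at 6.43 ± 8.42 CPM, from 5 UMIs in 262 nuclei, then in Cajal-Retzius-like nuclei at 3.50 ± 2.89 from 8 UMIs, and in deep-layer ExN at 3.09 ± 1.55 from 61 UMIs. No neighbouring pair of classes differed (exact adjusted p = 1 for each). Deep-layer ExN held 28.6% of its UMIs, with 0.712% of nuclei positive (95% exact interval 0.544 to 0.916) against 0.134% of upper-layer ExN. The 205 deep-layer ExN nuclei without an *Hs3st4* UMI had 0 UMIs of *Nxph4*, against 3.02 CPM ± 1.46 in those with one, in 10 of 10 libraries (exact adjusted p = 0.0113). At the depth of those 205 nuclei a count of 0 allows up to 5.33 CPM, so the test does not show that they had less.

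Much of the RNA lay outside the gates, so the class shares depend on how nuclei are assigned. Nuclei in no class held 59.3% of the *Nxph1* UMIs and 51.5% of those of *Nxph2*. When every kept nucleus was given the class it was most like, the 6119 MGE InhN nuclei held 61.9% of *Nxph1* and 72.6% of *Nxph2* UMIs, at 8728 ± 537 and 208 ± 36.1 CPM. The 3266 oligodendrocyte lineage nuclei then held 10.0% of *Nxph1* at 3450 ± 308 CPM, and the 10893 deep-layer ExN nuclei held 60.1% of *Nxph3*. Under this assignment *Nxph4* was highest in Cajal-Retzius-like nuclei, at 4.30 CPM, and no longer in L6b/subplate.

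Across 14 classes and 11059 genes, the genes whose mean log2(CPM + 1) followed each neurexophilin most closely were named. Genes picked this way tend to peak in a class where that neurexophilin is high, so a shared peak is no separate result. Closest to *Nxph1* were *Col19a1* (Pearson r = 0.89), the NMDA receptor subunit gene *Grin3a* (0.87), the gate marker *Sox6* (0.86), *Gm45025* (0.85) and *1110004F10Rik* (0.84), of which *Grin3a* and *1110004F10Rik* peaked in the MGE InhN class and the others in the oligodendrocyte lineage. Closest to *Nxph2* were *Gm31218* (0.90), the gate markers *Lhx6* (0.88) and *Sst* (0.86), *E430014B02Rik* (0.81) and *Gfra2*, a neurturin receptor gene (0.81), all highest in the MGE InhN class. Closest to *Nxph3* were the neuronal pentraxin gene *Nptx1* (0.85), *Nfe2l3* (0.81), the serotonin receptor gene *Htr1f* (0.80), *Osbpl10* (0.77) and *Gsg1l* (0.76). Those of *Nxph4* were *Dip2a* (0.83), *Selenow* (0.82), *Gm43320* (0.80), *Gm43048* (0.79) and *Dvl1* (0.78), all highest in the small L6b/subplate class. The *Nxph4* level there rested on 5 UMIs, so its likeness values carry much counting error. Among the family, *Nxph1* and *Nxph2* had r = 0.65 and *Nxph3* and *Nxph4* 0.65. The classes share libraries and depth, so these values describe likeness over 14 points.

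The Het and WT comparison asked how loss of 1 *Myt1l* copy bears on each gene by class. In the MGE InhN class *Nxph1* ranged from 8790 to 10100 CPM in WT libraries (median 9351) and stood at 8356, 6806, 8453 and 8059 CPM in Het libraries. All 4 Het libraries lay below all 8 WT libraries, with means of 7918 ± 760 and 9376 ± 445, as was so for 0.265% of the 6045 genes tested in the class. The fitted log2 difference was -0.26 (SE 0.07, edgeR unadjusted p = 0.000935, adjusted p = 0.149 over 6045 genes), which was not called. edgeR called no gene of the class (0%). DESeq2 called *Nxph1* there (adjusted p = 0.0301, log2 difference -0.26), among 0.38% of the genes of the class.

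*Nxph2* in the same class ranged from 166 to 360 CPM in WT libraries (median 249) and stood at 178, 159, 133 and 212 CPM in Het libraries. Het 2 and Het 3 lay below the WT range and Het 1 and Het 4 in its lower part. The fitted difference was -0.55 (SE 0.16, edgeR unadjusted p = 0.00152, adjusted p = 0.184; DESeq2 adjusted p = 0.0574). Among male libraries alone it was -0.65 and was called (edgeR adjusted p = 0.0415), as were 0.285% of the genes of the class.

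Marker levels of the class in both groups stand beside these results. The 5 GABA and MGE neuron genes kept out of the gate (*Gad1*, *Gad2*, *Dlx6os1*, *Erbb4*, *Npas1*) summed to 14901 ± 1146 CPM in WT (12386 to 16108) and 12104 ± 1057 in Het (10902 to 13344), with 2 of 5 higher in Het. *Erbb4* made up 92.6% of that sum, at 13889 ± 1125 CPM in WT and 11044 ± 1056 in Het, and each of the 5 genes overlapped between groups. The 5 gate markers summed to 4603 ± 251 and 4443 ± 156, with 3 of 5 higher in Het. The 4 CGE InhN markers summed to 185 ± 105 in WT (64.9 to 401) and 380 ± 214 in Het (123 to 574), with 3 of 4 higher in Het, and the 4 glutamate neuron genes to 22.9 ± 8.98 and 50.2 ± 22.2. The share of MGE InhN nuclei with *Sst* was 9.87% ± 1.498 in WT and 10.1% ± 4.10 in Het, and that with *Maf* 66.6% ± 3.45 and 62.8% ± 5.18. Among nuclei with a *Maf* UMI *Nxph1* stood at 10084 ± 648 in WT (8997 to 10861) and 8784 ± 481 in Het (8236 to 9335). Among those without, it stood at 8069 ± 450 and 6633 ± 1419. With an *Sst* UMI the values were 6781 ± 757 and 6169 ± 1014, and without one 9735 ± 503 and 8196 ± 780. The groups overlapped in each of these sets except the nuclei without *Sst*. The part of these markers in the result was not tested. With classes assigned by likelihood the *Nxph1* difference was -0.10 (edgeR unadjusted p = 0.118), from 8904 ± 485 in WT and 8375 ± 509 CPM in Het, and that of *Nxph2* -0.37 (edgeR unadjusted p = 0.00156, adjusted p = 0.284). With a stricter gate that of *Nxph2* was -0.22 (edgeR unadjusted p = 0.280).

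**Figure D4:**
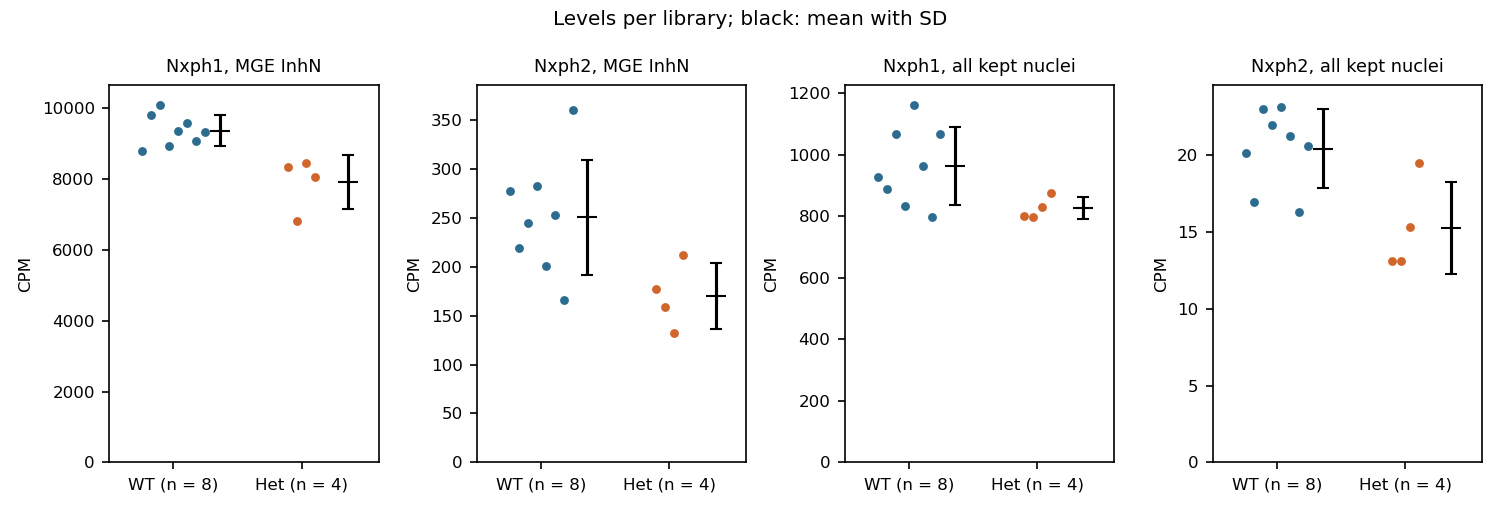
*Nxph1* and *Nxph2* levels (CPM, linear axes from 0) in the MGE InhN class and over all kept nuclei, 1 point per library (8 WT, 4 Het); black marks are means with SD. In the MGE InhN class all 4 Het points for *Nxph1* (6806 to 8453) lie below the WT points (8790 to 10100), and the other 3 panels overlap.

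Over the classes other than Cajal-Retzius, 16 pairs of a neurexophilin and a class had enough counts to be tested: 12 for *Nxph1*, 3 for *Nxph2*, 1 for *Nxph3* and 0 for *Nxph4*. edgeR called 0 of the 16, against 0.00722% of all 69261 tests in those 13 classes, 0.0674% of those in the D1 striatal class and 0.0316% of those in the oligodendrocyte lineage. An unadjusted p under 0.05 was reached by 3 pairs, against 6.42% of all tests, and DESeq2 called 1, against 0.0693% of all tests. Beside both MGE InhN results the third was *Nxph1* in deep-layer ExN. There it ranged from 143 to 371 CPM in WT libraries (median 208) and stood at 288, 355, 285 and 253 CPM in Het libraries, a log2 difference of 0.38 (SE 0.16, edgeR unadjusted p = 0.0250, adjusted p = 0.430). The Het libraries lay in the upper part of the WT range, and without WT 2 the difference was 0.50. Of the *Nxph1* UMIs of the class, 59.4% lay in the 15.7% of nuclei with an MGE or GABA marker UMI (*Sox6* included). The part of these nuclei in the difference was not tested. In the oligodendrocyte lineage *Nxph1* was at 2935 to 4318 CPM in WT libraries (median 3753) and at 3714, 3765, 3177 and 2942 CPM in Het libraries (log2 difference -0.11, SE 0.09, edgeR adjusted p = 1.00). These groups overlapped. In the other 9 classes *Nxph1* differences ran from -1.496 (microglia-gated) to 0.53 (mural/fibroblast), with 5 lower in Het and 4 higher. Both ends turned on single libraries: the microglia-gated value was -0.94 without WT 6 and -2.30 without Het 2, and the mural/fibroblast value -0.27 without Het 2 and 1.06 without WT 1. *Nxph3* in deep-layer ExN differed by 0.06 (SE 0.23, edgeR adjusted p = 0.973).

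Over all kept nuclei *Nxph1* ranged from 798 to 1162 CPM in WT libraries (median 945) and stood at 801, 797, 828 and 875 CPM in Het libraries. The Het libraries gathered at or near the lower end of the WT range, Het 2 just below it (log2 difference -0.25, SE 0.09, edgeR unadjusted p = 0.0140, adjusted p = 0.395). *Nxph2* ranged from 16.3 to 23.1 CPM in WT libraries (median 20.9) and stood at 13.1, 13.1, 15.3 and 19.5 CPM in Het libraries. Het 1, Het 2 and Het 3 were thus under the WT range (log2 difference -0.45, SE 0.12, edgeR unadjusted p = 0.00245, adjusted p = 0.354). *Nxph3* (2.55 ± 0.889 and 2.44 ± 0.842 CPM) and *Nxph4* (0.974 ± 0.239 and 1.17 ± 0.557 CPM) overlapped. edgeR called 0 of the 4 and 0% of all 20058 genes. An unadjusted p under 0.05 was reached by *Nxph1* and *Nxph2*, and by 10.1% of all genes, and DESeq2 called 0 of the 4 and 0.214% of all genes. MGE InhN nuclei were 2.48% ± 0.386 of kept nuclei in WT (2.03 to 2.93) and 2.02% ± 0.0568 in Het (1.95 to 2.09), and in a sum over the tissue fewer nuclei of a type and less RNA per nucleus cannot be told apart.

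In Cajal-Retzius-like nuclei, early-born layer 1 neurons gated on *Reln*, *Trp73*, *Lhx1*, *Lhx5*, *Ebf3* and *Ndnf*, the level and even the direction for *Nxph1* depended on how the class was drawn. In the 907 gated nuclei it stood at 860, 253, 210, 732, 361, 204, 827 and 486 CPM in WT 1 to WT 8 and at 92.6, 415, 196 and 268 CPM in the Het libraries. WT libraries reached higher, and the groups overlapped (means 492 ± 278 and 243 ± 136, log2 ratio -1.02). In the 821 nuclei assigned to the class by likelihood it stood at 76.4 ± 37.3 in WT (37.6 to 149) and 171 ± 29.4 in Het (147 to 209), a log2 ratio of 1.16 the other way.

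The gated class owed most of its *Nxph1* to a minority of nuclei. The 160 nuclei that passed the gate but not the likelihood assignment had 1742 CPM, 70.0% of them held a UMI of the MGE and GABA list with *Sox6* included, and they contributed 715 WT and 104 Het UMIs. The 747 nuclei in both had 99.8 CPM, from 77 WT and 134 Het UMIs, with means of 65.4 ± 28.5 in WT and 158 ± 66.7 in Het. Of the 907, the 225 with a UMI of that list held 89.9% of the *Nxph1* UMIs at 1354 CPM, and the other 682 stood at 54.5 CPM. The 10 nuclei richest in *Nxph1* held 31.4% of its UMIs at 8353 CPM. Leaving out all nuclei with a UMI of any MGE, CGE, striatal or general GABA neuron marker left 407 nuclei with 48.1 ± 33.9 CPM in WT and 34.9 ± 36.6 in Het, from 32 and 13.8 UMIs.

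In the 614 nuclei with a UMI of *Trp73*, a gene characteristic of Cajal-Retzius neurons, *Nxph1* stood at 80.8 ± 60.8 CPM, and in the 293 without at 1204 ± 834, lower with *Trp73* in 12 of 12 libraries. With and without *Ebf3* the values were 115 ± 87.8 and 913 ± 692 (lower with it in 12 of 12 libraries), and with and without *Ndnf* 404 ± 296 and 271 ± 260. Nuclei without one of these markers had to pass the gate on the others. These splits were tested together with those of the other classes above. No p-value is given for them, since this is the class by which the family was chosen. The 9 MGE and GABA genes summed to 382 ± 167 CPM in the WT libraries of the class (159 to 558) and 261 ± 54.0 in Het (189 to 320), with 1 of 9 higher in Het and *Nkx2-1* at 0. Most of that gap was *Sox6*, which oligodendrocyte precursors use as well, at 158 CPM in WT and 58.6 in Het. The gene higher in Het was *Dlx6os1*, at 57.6 in WT and 73.3 in Het. The 6 oligodendrocyte lineage markers summed to 21.1 ± 11.5 in WT (7.32 to 43.8) and 35.2 ± 4.69 in Het (31.8 to 42.1), with 5 of 6 higher in Het, and the part of either list in the *Nxph1* values was not tested. The 3 Cajal-Retzius genes outside the gate (*Cacna2d2*, *Calb2*, *Ebf2*) summed to 758 ± 95.7 and 792 ± 78.5. *Nxph2* (7 UMIs), *Nxph3* (6) and *Nxph4* (8) were too sparse in this class for a Het and WT reading.

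**Figure D5:**
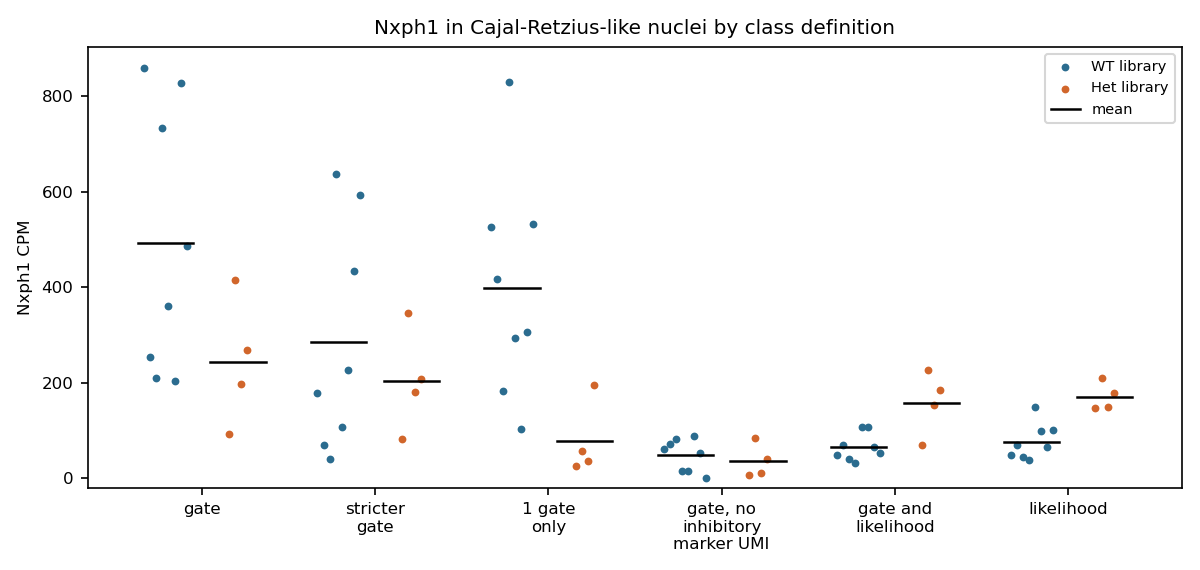
*Nxph1* level (CPM, linear axis) in Cajal-Retzius-like nuclei of each WT (blue) and Het (orange) library under 6 ways of drawing the class (1 gate only: fewer than 2 detected markers of any other class); black lines are group means. WT lies higher in the gated nuclei (492 against 243) and Het lies higher in the likelihood assignment (171 against 76.4).

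Neurexin genes were counted in the classes where neurexophilins were highest. *Nrxn3* stood at 21178 ± 1619 CPM in the MGE InhN class and 3031 ± 331 in the oligodendrocyte lineage and *Nrxn2* at 179 ± 28.9 and 235 ± 41.0 (n = 12). In deep-layer ExN, the leading class of *Nxph3*, *Nrxn3* stood at 2729 ± 489 CPM and *Nrxn2* at 174 ± 17.0. These levels are not set against gene length, and counts per gene do not single out the alpha forms that neurexophilins bind. Between Het and WT, none of the 24 neurexins and neurexin partners on a list (neuroligins, LRRTMs, cerebellins, calsyntenins, latrophilins and others) was called in any class: edgeR called 0 of 208 tests of 22 genes in 14 classes, against 0.00685% of all 73009 tests, and DESeq2 called 0, against 0.0657%. An unadjusted p under 0.05 came up in 19 of the 208 (9.13%, 9 higher in Het), against 6.38% over all genes, with a median log2 difference of -0.03. In the MGE InhN class *Nrxn2* and *Nrxn3* differed by -0.02 and 0.03 (edgeR adjusted p = 0.995 and 0.977).

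Over all kept nuclei edgeR called 0 of the 23 list genes tested, and 7 had an unadjusted p under 0.05, 1 of them higher in Het (30.4%, against 10.1% of all genes). Their median log2 difference was -0.07. Among them *Nrxn2* stood at 177 ± 16.4 CPM in WT and 158 ± 8.54 in Het (log2 difference -0.20, edgeR adjusted p = 0.386). *Nrxn3* differed by 0.02 (edgeR adjusted p = 0.973).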

How the data were processed

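Nuclei from 12 P1 forebrains (8 WT, 4 Het) shared the same processing plates. The authors mapped reads to mm10 with ScaleRna and deposited 1 matrix per library, whose values are expected counts (UMIs, divided where 1 fits several genes), not normalized. Whether counting used strand is not stated. The submitters' processing notes name Seurat 4.3.0. The stated filter was applied to the 126684 deposited barcodes (800 to 6000 UMIs, 300 to 3000 genes, at most 1% mitochondrial, log ratio of genes to UMIs at least 0.9). This left 98111 nuclei. The 5% of barcodes per library with the most simulated doublets among their nearest neighbours were also dropped, which left 94510; the share was set, not estimated. Kept nuclei per library numbered 4476 to 10867.

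A nucleus joined a class when its markers' summed Poisson excess over the all-nuclei rate (−log10, at most 4 per marker) reached 4, led the next class by 2 and rested on 2 or more markers. This scoring rule was chosen after several were tried on these data. In 3955 nuclei more than 1 gate was passed. In the MGE InhN class 555 further nuclei lay within 1 unit below the gate. Classes with at least 10 nuclei in 3 or more libraries of each genotype were compared. Counts were summed per library and class, and levels are CPM of those sums. Sums rounded to whole numbers were tested in edgeR 4.0.16 (quasi-likelihood, TMM, filterByExpr, genotype as sole term, called at an adjusted p under 0.05 and a log2 difference of 0.2 or more, SE from the F statistic) with R 4.3.3, with Benjamini-Hochberg adjustment over all genes of a class. DESeq2 1.42.0 and the other settings of the closing section were alternatives. The edgeR step was tested on simulated data. The alternative by likelihood gave every kept nucleus the class with the most likely profile over 3000 genes, no neurexophilin among them. The splits of nuclei by a marker UMI, the WT and Het values by *Maf* and *Sst* UMI, the overlap of gate and likelihood and the test of *Nxph2* shares per library were chosen after the data were seen. Class levels were compared within library by exact sign-flip tests. p-values treat mice as replicates, and 4 litters were not told apart. Coding sequences were aligned with MAFFT 7.526.

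The genes, marker lists, partner list and named genes (the family, *Myt1l*, the 5 most alike genes to each among genes reaching 20 CPM in a class, *Nrxn2* and *Nrxn3*, and markers beside a result) were chosen with earlier results of these data known. 1 item is not reported here.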

Additional observations from a re-analysis of the deposited data

Results flagged for a closer look

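In 42 groups of libraries with at least 100 UMIs of a neurexophilin in a class, the highest and lowest library were compared with the rest, and 4 stood apart by Dixon's criterion, which chance alone meets in about 1 of 20 groups. All 4 were high *Nxph1* values in classes where the gene is low. *Nxph1* in D1 striatal nuclei stood at 582 CPM in WT 6 (90 UMIs in 68 nuclei), against a median of 129 and a highest value of 188 in the other WT libraries. In the microglia-gated class it stood at 2685 CPM in the same library, from 46 UMIs in 12 nuclei, against 89.1 to 687 in the others. In mural/fibroblast nuclei it stood at 403 CPM in WT 1, against 30.6 to 182 in the other WT libraries, and at 433 CPM in Het 2, against 80.0 to 132 in the other Het libraries. In the MGE InhN class and the oligodendrocyte lineage no library stood apart by this criterion.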

How the results depend on the processing

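The class that led for *Nxph1*, *Nxph2* and *Nxph3* was the same with doublets kept, with a stricter gate, with nuclei holding fewer than 2 detected markers of any other class, with classes by likelihood and with all deposited barcodes; for *Nxph4* it changed under likelihood. The *Nxph1* level in the MGE InhN class fell to 7723 CPM with all deposited barcodes and lay between 8780 and 9079 when single libraries were left out.

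edgeR's 0 calls among neurexophilin and class pairs became 1 with DESeq2 (*Nxph1*, MGE InhN), 1 with male libraries alone, 2 with the replicate block (*Nxph2* in MGE InhN, log2 difference -0.57, adjusted p = 0.0472, and *Nxph1* in endothelial nuclei, 3.13) and 3 of 47 with no low-count filter (*Nxph2* in MGE InhN, *Nxph1* in both excitatory classes). Over all genes of those 13 classes the share called was 0.0693% with DESeq2, 0.133% with male libraries alone, 0.078% with the replicate block and 0.227% with no filter, against 0.00722%. In the main fit *Nxph1* differed by 0.38 in deep-layer ExN and by -0.52 in upper-layer ExN, opposite in direction. The neurexophilin calls stayed at 0 without any single library. The causes were not tested. Same-numbered libraries did not deviate together in every pair (correlations -0.202, 0.152, 0.132 and 0.415), and 3 of 8 libraries correlated best with their own number, so the numbers were not taken as pairs. In the MGE InhN class, over 22 alternatives, *Nxph1* ran from -0.29 to -0.10 (adjusted p = 0.0301 to 0.803) and *Nxph2* from -0.73 to -0.22 (0.0182 to 0.879); *Nxph1* without Het 2 was -0.19. Over all kept nuclei no alternative called a neurexophilin. Calls among the neurexin partners rose from 0 to 6 with no filter and 2 with the replicate block. These counts take in Cajal-Retzius-like nuclei and all kept nuclei, so the shares over 13 classes above cover a different set of tests. When single libraries were left out the partner calls lay between 0 and 1, with 1 call (*Cbln2* in upper-layer ExN, -1.27) without Het 4. *Cbln2* was called there among male libraries alone as well (edgeR adjusted p = 0.0366). Het 4 was the only female Het library, so both settings rest on the same male Het libraries. Without Het 4, 0.207% of all tests in 13 classes were called.

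For *Nxph1* in Cajal-Retzius-like nuclei the log2 ratio of Het to WT was -2.35 in gated nuclei with fewer than 2 detected markers of any other class, -0.49 with the stricter gate, 1.16 with classes by likelihood, and -1.40 to -0.74 when single libraries were left out. Outside deep-layer ExN no class held more than 25 *Nxph3* or 19 *Nxph4* UMIs, which limits the precision of those levels.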
